A study of Mus musculus with 4 samples.

Results

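Central HNKO 2 hepatocytes are the 78 nuclei, of 5193 liver nuclei in all, that carry the cluster name Central HNKO 2 in the authors' annotation of a single-nucleus RNA-Seq (snRNA-Seq) experiment. The experiment compared 3 WT mice with 3 hepatocyte-specific Nampt knockout (HNKO) mice. Per the labels, the WT animals were C57BL6/BomTac Nampt cKO (wildtype), with the conditional Nampt allele and no Cre, and the HNKO animals were C57BL6/BomTac Alb-Cre Nampt cKO (knockout), in which the albumin promoter drives Cre. The paper calls this knockout hepatocyte-specific, and whether the other liver cells of the HNKO mice kept Nampt was not tested here. All mice were females of 8 to 12 weeks at the start and were fed a purified diet (PD) for 6 weeks. Part of that cohort also received nicotinamide riboside in the drinking water, and which water these 6 mice drank is not given in the sources used here. Nuclei were taken from frozen liver, each mouse was stained with its own hashtag antibody, 4250 nuclei per mouse were sorted, and the nuclei were sequenced as 2 pools. No barcode occurred more than once in the deposited table, and it does not say which pool a nucleus came from.

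All 78 nuclei carried the hashtag of HNKO mouse 3. They made up 9.21% of the 847 hepatocyte nuclei of that mouse (exact 95% binomial interval 7.35 to 11.4%, counting error only). The central hepatocytes of the other mice fell into the clusters Central 1 and Central HNKO 1, in WT mice 39, 49 and 43 nuclei of Central 1, in HNKO mouse 1 93 nuclei of Central HNKO 1 and 7 of Central 1, and in HNKO mouse 2 80 nuclei of Central 1 and 1 of Central HNKO 1. The remaining hepatocytes of HNKO mouse 3 lay mainly in the clusters HNKO 2, with 479 nuclei, and HNKO 3, with 285. A mouse and the cluster Central HNKO 2 therefore cannot be told apart, there is no replicate of the cluster, and the values below are descriptions with counting intervals rather than tests of genotype.

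Several features of the libraries bear on these values. HNKO mouse 3 stood apart in its hashtag signal, because the mouse's own hashtag gave a median of 45.5% of the hashtag counts of its nuclei against 65.2 to 78.0% in the other 5 mice. In Central HNKO 2 nuclei the share was 54.7%. HNKO mouse 2, although labelled as a knockout, shared its central cluster with the WT mice, and 1, 7 and 1 of its 819 hepatocyte nuclei lay in HNKO 1, HNKO 2 and HNKO 3. The 6 mice had 629 to 1063 nuclei and 3766532 to 7763269 unique molecular identifiers (UMIs). The 78 Central HNKO 2 nuclei held 432424 UMIs, with a median of 3997 per nucleus (range 1482 to 22851), against a median of 5341 in HNKO 2 and 4349 in HNKO 3 of the same mouse. Expression is given as CPM, the UMI count of a gene summed over the nuclei of a cluster and scaled to 1e+06 UMIs, and a level of 50 CPM corresponds to 21.6 UMIs in Central HNKO 2.

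Nampt, which converts nicotinamide to the NAD precursor nicotinamide mononucleotide and is the gene deleted in HNKO hepatocytes, was read first. It was at 78.6 CPM in Central HNKO 2, 76.4 CPM in Central 1, 101 CPM in HNKO 2 and 73.6 CPM in HNKO 3. In central nuclei of the WT mice it was at 42.3, 100.3 and 62.6 CPM, and in those of HNKO mice 1 and 2 at 50.2 and 98.0 CPM. The Central HNKO 2 value thus lay within the WT range. Tags in 3′ chemistry lie near the end of a transcript and may come from outside the deleted part, so that this level does not check the genotype.

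Hepatocytes around the central vein receive Wnt ligands from the vein's endothelium. Wnt signalling stabilises β-catenin, which acts with TCF factors on genes for glutamine synthesis, glutamate uptake, cytochromes P450 and bile acid synthesis, and it also raises its own inhibitors, among them Axin2, Notum and the ubiquitin ligases Rnf43 and Znrf3. Hepatocytes at the portal end make urea, glucose and serum proteins. The 5 genes given for this cluster are Glul (glutamine synthetase), Axin2 (a scaffold of the β-catenin destruction complex), Tbx3 (a T-box transcription factor), Cyp2a5 (a cytochrome P450) and Gulo (the last enzyme of vitamin C synthesis). All 5 were present, and with Slc1a2 (a glutamate transporter), Kif26b (a kinesin-family protein), Airn (an antisense RNA of the Igf2r locus), Rnf43 and Nxpe2 they were the 10 genes with the highest level relative to all other nuclei. The clusters were built on these same genes, so that this is a check of the name and not a finding. Most defining markers of other liver cells were at or near 0. Of 11 cholangiocyte markers 7 had no UMI (among them Epcam, Krt19, Krt7 and Sox9), and so had 3 of 8 endothelial, 5 of 9 stellate, 1 of 6 Kupffer cell and 8 of 11 lymphoid and myeloid markers. Their summed levels were 345, 48.6, 286, 23.1 and 19.3 CPM, against 8846, 11099, 7898, 6122 and 5414 CPM in the clusters of those cells. Of the 149 UMIs of the cholangiocyte list, 115 came from Pkhd1, and the list summed to 316 CPM in Central 1. Of the stellate sum, 279 CPM came from Reln, a secreted matrix glycoprotein that was also at 140 CPM in Central 1. The part of other cells' RNA in the results was not tested beyond these levels.

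Promoter sequences are shown for 4 genes that set the central nuclei apart, since TCF factors bind a short DNA motif. These 4 are examples, and how many of them hold the motif does not stand for the other genes. Lgr5, Tbx3, Gulo, Lhpp, Sgcz and Notum had no promoter entry. The motif letters searched were ATCAAAG and TTCAAAG on both strands, which do not overlap each other, in windows from 250 bases before to 50 bases after the transcription start (RefSeq, GRCm38.p6). The 250 bases before the start are printed 5′ to 3′, all on the plus strand, with motif letters in capitals. The windows begin at chr2:102706188-102706437 for Slc1a2, chr1:178528875-178529124 for Kif26b, chr7:140763569-140763818 for Cyp2e1 (an ethanol-inducible cytochrome P450) and chr1:153899679-153899928 for Glul.
Slc1a2: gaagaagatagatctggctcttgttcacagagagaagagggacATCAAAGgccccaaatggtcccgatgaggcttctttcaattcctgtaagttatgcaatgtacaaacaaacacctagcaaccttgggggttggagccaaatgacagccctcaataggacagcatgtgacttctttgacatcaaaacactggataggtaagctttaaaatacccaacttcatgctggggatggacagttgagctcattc
Kif26b: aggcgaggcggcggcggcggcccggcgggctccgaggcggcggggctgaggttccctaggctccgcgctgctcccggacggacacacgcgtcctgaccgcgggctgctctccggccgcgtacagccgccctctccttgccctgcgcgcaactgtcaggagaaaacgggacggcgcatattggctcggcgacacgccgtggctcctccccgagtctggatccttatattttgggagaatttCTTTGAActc
Cyp2e1: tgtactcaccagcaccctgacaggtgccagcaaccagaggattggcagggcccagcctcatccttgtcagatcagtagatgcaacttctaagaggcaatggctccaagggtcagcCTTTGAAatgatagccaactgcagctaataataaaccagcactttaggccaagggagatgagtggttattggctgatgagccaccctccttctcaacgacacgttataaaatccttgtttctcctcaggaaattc
Glul: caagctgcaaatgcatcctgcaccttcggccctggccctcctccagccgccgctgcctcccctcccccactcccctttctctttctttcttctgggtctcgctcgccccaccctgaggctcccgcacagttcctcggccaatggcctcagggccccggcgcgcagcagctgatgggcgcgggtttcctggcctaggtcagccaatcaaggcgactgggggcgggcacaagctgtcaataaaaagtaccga
The motif lay 207 bases before the start in Slc1a2, 10 bases before it in Kif26b and 135 bases before it in Cyp2e1, and the letters did not occur in the Glul window. The Slc1a2 window lies inside the longer gene span of the GENCODE annotation (102658659 to 102790784 on chromosome 2), so that other starts of this gene exist. Of all 32851 promoters listed, 2842 (8.65%) held the motif, and of 2813 genes measured in Central HNKO 2 and HNKO 2 that had a promoter entry 215 (7.64%) did. Among the 121 genes at least 2-fold higher in Central HNKO 2 than in HNKO 2, 84 had an entry and 15 of these (17.9%) held the motif. Of the 44 genes of the Wnt and pericentral lists used below, 30 had an entry and 8 (26.7%) held it. These shares are descriptions of sequence and carry no test.

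The levels of the leading genes in each mouse place Central HNKO 2 beside the central nuclei of the other animals. Slc1a2 was at 3401, 3936 and 4498 CPM in central nuclei of the WT mice, 4422 and 4414 CPM in HNKO mice 1 and 2, and 3272 CPM in Central HNKO 2 (95% Poisson interval 3104 to 3447). In the other hepatocytes of the same 6 mice it was at 19.9 to 86.8 CPM, so that the summed levels of central and other nuclei did not overlap between mice. Glul was at 1039, 1605 and 1235 CPM in central WT nuclei, 992 and 1619.9 CPM in HNKO mice 1 and 2, and 1198 CPM in Central HNKO 2, against 21.1 to 67.7 CPM in other hepatocytes. The clusters were built on expression that includes these 2 genes, so that the gap between central and other nuclei was partly set by the grouping. Among central nuclei, Glul of HNKO mouse 3 was within the range of the other mice and Slc1a2 was at the lowest value of the 6. Lgr5, a receptor that amplifies Wnt signals, was at 494 CPM in Central HNKO 2 and at 476 to 859 CPM in central nuclei of the other mice. Cyp2e1 was at 1966 CPM, with 1312 to 2661 CPM in the others.

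Of the 5 given genes, the 4 other than Glul were higher in Central HNKO 2 than in the central nuclei of every other mouse on UMI totals, and so was Rnf43. Tbx3, Axin2, Gulo and Cyp2a5 are markers given for this cluster, and with Rnf43 they were among its highest genes over all other nuclei. Their order above the other mice was thus partly set by their choice and is no separate finding. The order was not computed with TMM, under which the log2 ratio of Cyp2a5 over Central 1 went from 0.65 to 0.19. Tbx3 (chromosome 5, 119670669 to 119684724, plus strand) was at 185 CPM (interval 147 to 230.3) against 3.85, 62.7, 6.96, 6.54 and 46.6 CPM in WT mice 1, 2 and 3 and HNKO mice 1 and 2. Its level varied widely among the other 5 mice, with WT mouse 2 and HNKO mouse 2 high and the rest low. Axin2 (chromosome 11, 108920349 to 108950783) was at 69.4 CPM (interval 46.8 to 99.0) against 19.2, 18.8, 10.4, 4.36 and 17.2 CPM. This rested on 30 UMIs. Rnf43 was at 1340.2 CPM against 372, 755, 457, 341 and 713 CPM. Gulo was at 379 CPM against 158, 226, 229.6, 129 and 184 CPM, and Cyp2a5 at 384 CPM against 177, 207, 282, 91.1 and 269.6 CPM. For each of these 5 genes the other hepatocytes of HNKO mouse 3 were likewise the highest of the 6 mice, at 26.3 CPM for Tbx3, 4.94 CPM for Axin2, 368 CPM for Rnf43, 75.8 CPM for Gulo and 68.9 CPM for Cyp2a5, so that the higher level was seen in both kinds of nuclei.

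**Figure D1:**
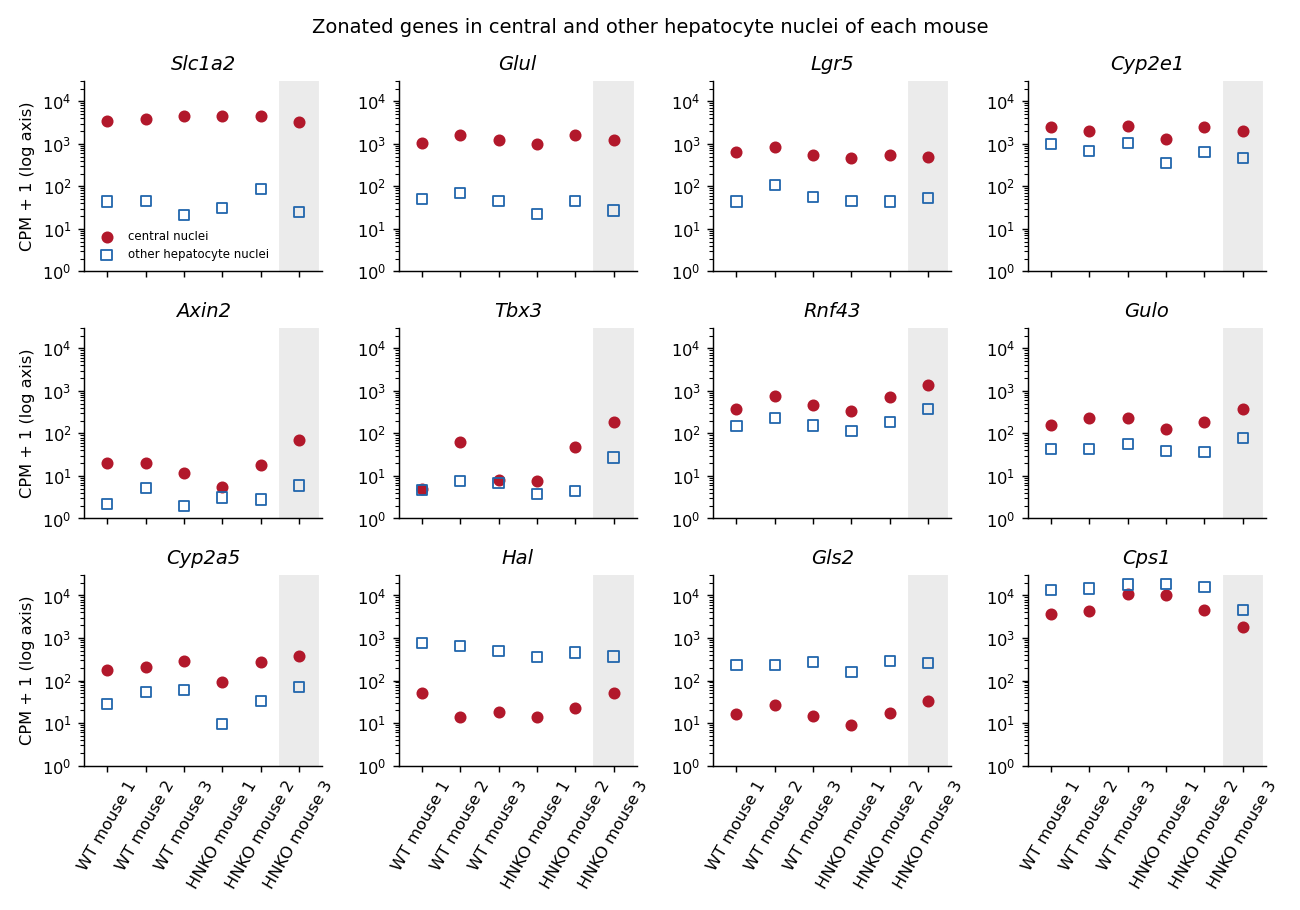
Level (CPM + 1, log axis) of 12 zonated genes in central nuclei (filled circles) and other hepatocyte nuclei (open squares) of each of the 6 mice, with HNKO mouse 3, whose central nuclei are Central HNKO 2, shaded. Slc1a2, Glul, Lgr5 and Cyp2e1 of HNKO mouse 3 sit at or near the level of the other mice, whereas its Axin2, Tbx3, Rnf43, Gulo and Cyp2a5 points are the highest of their kind on UMI totals. The latter were among the highest genes of this cluster in the same data, so that the order of their central points was partly set by their choice.

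The central-to-other difference was compared over mice as the log2 ratio of central over other hepatocyte nuclei, with 10 CPM added to both. The 29 pericentral enzymes and transporters (23 measured) had a median of 1.42 in HNKO mouse 3 against 0.97 to 1.93 in the other 5, the 23 periportal genes (17 measured) had a median of -1.62 against -1.89 to -1.27, and the 15 Wnt targets and feedback genes (6 measured) had 0.66 against 0.51 to 0.88. The medians of HNKO mouse 3 were inside the range of the other mice on all 3 lists. Its counts were not always so, since 20 of the 23 pericentral genes were at least 2-fold higher in its central nuclei against 11 to 17 in the other mice, and over all genes 71 were higher and 77 lower against 92 to 103 and 96 to 181. Of 3121 genes measured, 6 (0.192%) had a ratio in HNKO mouse 3 that was higher than in every other mouse by 1 or more on the log2 scale, and 4 (0.128%) were lower by that margin. The 6 included Etnppl, Sds, Igfbp2, Hal and Slc40a1, chosen here after their values were seen. Their ratios in HNKO mouse 3 were -1.39, -1.68, -0.83, -2.69 and -0.57. Each was thus still lower in central than in other nuclei, by a smaller margin than in the other mice. Etnppl rested on 3 UMIs in Central HNKO 2. Sds (serine dehydratase) was at 141 CPM in the other hepatocytes of HNKO mouse 3 and at 463 to 930 CPM in those of the other mice, so that for this gene the portal side was low and the central level (37.0 CPM) was within the range of the other mice. The 4 were Nr4a1 and Atf3, immediate early transcription factors, Slc25a25, a mitochondrial ATP-magnesium carrier, and Slc22a3, an organic cation transporter. In Central HNKO 2, Nr4a1, Atf3, Slc25a25 and Slc22a3 rested on 1, 6, 18 and 34 UMIs. Atf3 was at 13.9 CPM in Central HNKO 2 against 80.8, 144, 80.0, 204 and 186 CPM. Slc25a25 was at 41.6 CPM against 292, 288, 289, 407 and 328 CPM. Slc22a3 was at 78.6 CPM against 146, 570.4, 278, 1154 and 235 CPM, and at 2.13 to 5.77 CPM in other hepatocytes of all 6 mice. Its level in HNKO mouse 3 was thus higher in central than in other nuclei, and the lowest central level of the 6 mice.

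Independent of the genes used for clustering, hashtag counts per nucleus were higher in central than in other hepatocyte nuclei of 6 of 6 mice, by a mean difference in medians of 62.6 ± 39.2 (SD, n = 6). The two-sided exact sign-flip permutation test gave p = 0.03125, the smallest it can give with 6 mice, and 0.0625 after adjustment over the 2 hashtag measures. Counts of the mouse's own hashtag were higher in 5 of 6 mice, by 59.4 ± 38.2 (SD, n = 6), with exact p = 0.0625 and adjusted p = 0.0625. In HNKO mouse 3 the medians were 252.5 counts in Central HNKO 2 and 221 in other hepatocytes. The share of UMIs from unspliced RNA was lower in central than in other nuclei of all 6 mice, with 72.8% against 76.6% in HNKO mouse 3. This share and the UMIs per nucleus were compared over mice without a test, so that the adjustment does not cover them. Counts of the own hashtag are a part of all hashtag counts, so that the 2 tests are not independent.

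Within HNKO mouse 3, the comparison with HNKO 2 asked which genes distinguish the central nuclei from the other knockout hepatocytes of the same liver and hashtag. Of 3630 genes with a mean of 50 CPM or more, 121 (3.33%) were at least 2-fold higher in Central HNKO 2 and 126 (3.47%) at least 2-fold lower, with a median log2 ratio of -0.05 over all genes. Slc1a2 was at 3272 CPM against 22.8 CPM (log2 ratio 6.65) and Glul at 1198 against 17.4 CPM (5.46). Lgr5 was at 494 against 19.2 CPM (4.11) and Gna14, a G-protein α subunit, at 243 against 4.60 CPM (4.11). Kif26b followed with 172 against 2.10 CPM (3.91), Lhpp, a phosphatase, with 543 against 30.6 CPM (3.77), Sgcz, a sarcoglycan, with 205 against 9.82 CPM (3.44) and Cyp2e1 with 1966 against 178 CPM (3.40). These 8 had the highest log2 ratios of the comparison once predicted genes were left out, as was done for the highest and lowest genes of the other comparisons. The given genes Tbx3 (185 against 10.8 CPM, 3.23), Gulo (379 against 38.1 CPM, 3.02) and Cyp2a5 (384 against 38.8 CPM, 3.01) also passed 2-fold. Axin2 was at 69.4 against 0.300 CPM, which is 1 UMI in 479 nuclei, and did not reach the level filter.

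The genes past 2-fold were then read by role. The clusters were separated on expression that includes zonated genes. The counts of pericentral, Wnt and periportal genes against HNKO 2 and HNKO 3 therefore describe that split and are no separate finding. Of the 29 pericentral enzymes and transporters 23 were measured, 20 were at least 2-fold higher and none at least 2-fold lower, with a median log2 ratio of 2.07. They included Cyp1a2 (123 against 10.8 CPM), Cyp7a1, the rate-limiting enzyme of bile acid synthesis (361 against 73.7 CPM), and the organic anion transporter Slco1b2 (4363 against 1134 CPM). The bile acid list as a whole had 3 of 19 higher and none lower, and the xenobiotic receptor targets 4 of 12 higher and none lower. The 3 bile acid genes, Cyp7a1, Cyp27a1 and Slco1b2, are also on the pericentral list. So is Por, which is among the 4 xenobiotic genes, so that these counts overlap. Of the 15 Wnt genes 8 were measured, and 4 were higher (Lgr5, Tbx3, Rnf43 and Znrf3) and none lower, with a median of 0.75. The Wnt antagonists Nkd1 (71.7 against 0 CPM) and Notum (76.3 against 5.69 CPM) were below the level filter, while Ctnnb1, which encodes β-catenin (64.8 against 74.9 CPM), Apc (156 against 188 CPM), Tcf7l2 (734 against 673 CPM) and Lgr4 (257 against 288 CPM) were within 2-fold. The Wnt genes past 2-fold were thus targets and feedback genes, and these 4 components were not among them. Fatty acid oxidation and PPAR-α targets had 4 of 13 higher and none lower, with a median of 0.59.

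In the other direction, 13 of 19 measured periportal genes were at least 2-fold lower and none higher, with a median of -1.51. The 8 lowest genes of the comparison were Nrg1, a growth factor of the neuregulin family (9.25 against 352 CPM, log2 ratio -4.23), Cib3, a calcium-binding protein (4.63 against 238 CPM, -4.08), Gldc, the glycine decarboxylase (4.63 against 193 CPM, -3.79), Cyp2f2 (2.31 against 145 CPM, -3.66), Cryl1, a crystallin-related dehydrogenase (6.94 against 147 CPM, -3.22), Cdh1, which encodes E-cadherin (9.25 against 151 CPM, -3.06), Jazf1, a zinc finger factor (9.42 against 143 CPM, -2.97), and Hsd17b6 (11.6 against 152 CPM, -2.91). In Central HNKO 2 these values rest on 1 to 5 UMIs each. Of the urea and amino acid enzymes, Arg1 (111 against 827 CPM), Hal (48.6 against 406 CPM), Gls2 (31.2 against 268 CPM) and Cps1 (1799 against 3912 CPM) were at least 2-fold lower, whereas Ass1 (282 against 524 CPM), Asl (78.6 against 161 CPM) and Otc (261 against 367 CPM) were within 2-fold on the log2(CPM + 10) scale. Fatty acid synthesis had 4 of 13 lower and none higher, with a median of -0.83. These were Acly (83.3 against 409 CPM), Acaca (849 against 2977 CPM), Elovl6 (315 against 739 CPM) and Fasn (87.9 against 204 CPM). Cholesterol synthesis had 3 of 9 lower, among them Hmgcs1 (125 against 334 CPM) and Fdft1 (94.8 against 230.4 CPM). Mitochondrially encoded genes had 4 of 9 lower and a summed level of 1085 CPM against 2242 CPM. These transcripts are made outside the nucleus, so that here and below their level in isolated nuclei does not measure expression in the whole cell. What set this level was not tested. Of the 3 genes that the study examined for necrosis, Rtn4 was at 62.4 against 394 CPM and Ntrk2 at 54.7 against 131 CPM, both at least 2-fold lower, and Sord was at 1219.9 against 657 CPM. Hepatocyte identity genes had 2 of 23 higher and none lower.

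HNKO 3 was the cluster whose summed levels were most like Central HNKO 2. Across 3575 genes, Pearson's r of log2(CPM + 10) was 0.961 with HNKO 3, 0.913 with HNKO 2, 0.905 with Central 1, 0.886 with Hepatocytes 1 and 0.856 with Central HNKO 1. The first 2 clusters come from the same mouse and Central 1 from others, and genes are not independent replicates, so that these are descriptions. When all sums were thinned to 87038 UMIs the order of these 5 clusters was kept, with 0.888 for HNKO 3.

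Against HNKO 3 far fewer genes passed 2-fold. Of 3555 genes 40 (1.13%) were higher and 33 (0.928%) lower, with a median of -0.01. The 8 highest included Slc1a2 (3272 against 26.9 CPM, log2 ratio 6.48), Glul (1198 against 43.2 CPM, 4.5), Kif26b (172 against 2.92 CPM, 3.82), Gna14 (243 against 9.64 CPM, 3.69), Sgcz (205 against 15.7 CPM, 3.07), Lhpp (543 against 92.3 CPM, 2.44) and Airn (1540.2 against 346 CPM, 2.12). Airn overlaps Igf2r on the opposite strand, and how the counting treated strand is not given in the sources used here, so that its reads are uncertain. Tbx3 (185 against 56.1 CPM, 1.56), Cyp2a5 (384 against 128 CPM, 1.52) and Gulo (379 against 149.5 CPM, 1.29) passed 2-fold, and Cyp2e1 did not (1966 against 1043 CPM, 0.91). The lowest were Gls2 (31.2 against 249 CPM, -2.65), Arg1 (111 against 665 CPM, -2.48), Jazf1 (9.42 against 94.5 CPM, -2.43), Hal (48.6 against 290.3 CPM, -2.36), Aspg, an asparaginase (76.3 against 410.1 CPM, -2.28), Sult2a1, a sulfotransferase (19.7 against 97.9 CPM, -1.86), C9, a complement component (104 against 387 CPM, -1.80), and Uroc1, the urocanate hydratase (60.1 against 234 CPM, -1.80). Pericentral genes had 8 of 23 higher and none lower (median 0.81), Wnt genes 3 of 8 higher (median 0.51), and periportal genes 9 of 14 lower (median -1.26). Of the midzonal genes Igfbp2 was at 62.4 against 182 CPM, the only one of 3 past 2-fold. The fatty acid synthesis list had 2 of 13 lower, Acly and Acaca, the fatty acid oxidation list 1 of 14 higher, and the mitochondrially encoded genes none of 8 past 2-fold, with a sum of 1085 against 928 CPM.

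**Figure D2:**
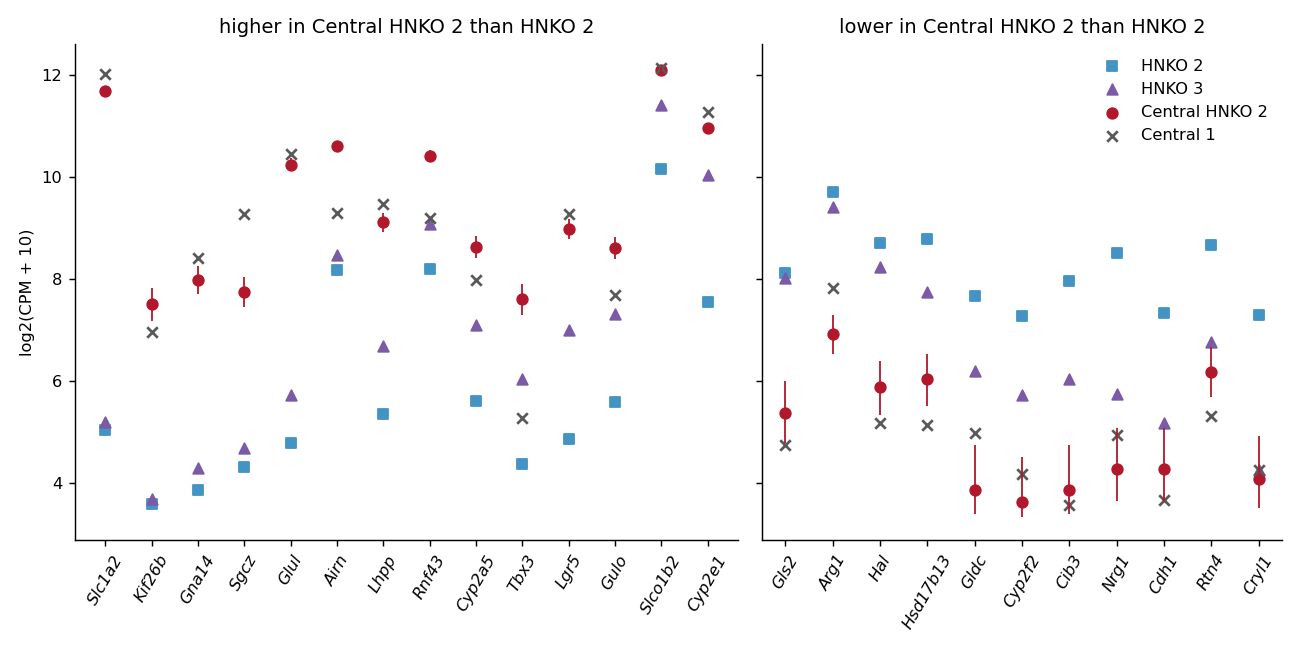
Level (log2(CPM + 10)) of genes higher (left) or lower (right) in Central HNKO 2 than in HNKO 2, in HNKO 2 (squares), HNKO 3 (triangles), Central HNKO 2 (circles with 95% Poisson intervals) and Central 1 (crosses), ordered by how far HNKO 3 lies from HNKO 2. HNKO 3 sits beside HNKO 2 for Slc1a2 and Kif26b and between the 2 others for Lgr5, Gulo and Cyp2e1.

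The position of HNKO 3 between HNKO 2 (0%) and Central HNKO 2 (100%) was computed per gene on the log2(CPM + 10) scale. For the 121 genes higher in Central HNKO 2 the median position was 52.3% (quartiles 34.2 and 70.2%), with 16 genes under 25%, 86 between 25 and 75%, and 19 over 75%. For the 126 lower genes it was 47.7% (quartiles 30.9 and 66.2%), with 24, 80 and 22 genes in these ranges. Most genes of either direction therefore took an intermediate level in HNKO 3. Several named genes were nearer to HNKO 2. Slc1a2 stood at 2.55%, Kif26b at 2.43%, Gna14 at 10.4%, Sgcz at 10.9%, Airn at 12.7% and Glul at 17.6%. Intermediate positions were taken by Lhpp at 35.4%, Rnf43 at 40.1%, Cyp2a5 at 49.7%, Tbx3 at 51.7%, Lgr5 at 51.9% and Gulo at 57.4%. Slco1b2 (64%), Cyp2e1 (73.3%) and Cyp7a1 (76.8%) in HNKO 3 were nearer to Central HNKO 2. Among the lower genes, Gls2 (3.66%), Arg1 (11.1%) and Hal (16.7%) stayed at the HNKO 2 level in HNKO 3, while Cdh1 (70.0%), Rtn4 (76.4%) and Cryl1 (94.7%) were nearer to the central level. The genes were chosen by the 2-fold rule on the ends of this scale, so that the ends carry no information of their own. That choice also made a position between the ends more likely. Cdh1 and Cryl1 rested on 4 and 3 UMIs in Central HNKO 2.

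After thinning, Slc1a2 and Glul were seen in most nuclei of the cluster, and Lgr5, Cyp2a5, Gulo, Tbx3 and Axin2 in a minority. Nuclei were placed in the cluster by their expression, so that detection of central genes follows in part from membership. After each nucleus was thinned to 1000 UMIs, Slc1a2 was seen in 92.3% of the 78 nuclei (exact binomial interval 84.0 to 97.1%), compared with 96.2% in Central 1, 1.88% in HNKO 2, 6.32% in HNKO 3 and 4.76% in endothelial nuclei of HNKO mouse 3, which serve as a measure of free RNA (42 nuclei, median 2910.0 UMIs). Glul was seen in 57.7%, compared with 64.9% in Central 1, 2.71% in HNKO 2, 3.51% in HNKO 3 and 4.76% in endothelial nuclei, so that the HNKO 2 and HNKO 3 shares were not above this background. Lgr5 was seen in 38.5% of Central HNKO 2, 35.5% of Central 1 and 9.82% of HNKO 3. Tbx3 was seen in 16.7% of Central HNKO 2 (interval 9.18 to 26.8%) and 3.32% of Central 1 (1.34 to 6.71%), and Axin2 in 7.69% (2.88 to 16%) and 2.84% (1.05 to 6.09%). Cyp2a5 was seen in 34.6% and 20.4%, and Gulo in 23.1% and 19.0%, of the 2 clusters. Without thinning the shares in Central HNKO 2 were 100% for Slc1a2, 83.3% for Glul, 82.1% for Lgr5, 74.4% for Gulo, 62.8% for Cyp2a5, 46.2% for Tbx3 and 29.5% for Axin2.

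At full depth 65 of the 78 nuclei held UMIs of both Slc1a2 and Glul, 13 held Slc1a2 alone and none held neither, while 82.3% of HNKO 2 and 75.1% of HNKO 3 nuclei held neither. Slc1a2 and Glul together gave a median of 0.518% of a nucleus's UMIs in Central HNKO 2 (lowest 0.0952%, highest 1.22%), 0.533% in Central 1 and 0.513% in Central HNKO 1. The medians in HNKO 2 and HNKO 3 were 0. No nucleus of Central HNKO 2 was at 0, and the lowest nuclei overlapped the highest nuclei of HNKO 2 (0.207%) and HNKO 3 (0.585%). As above, these values follow in part from how the nuclei were grouped.

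**Figure D3:**
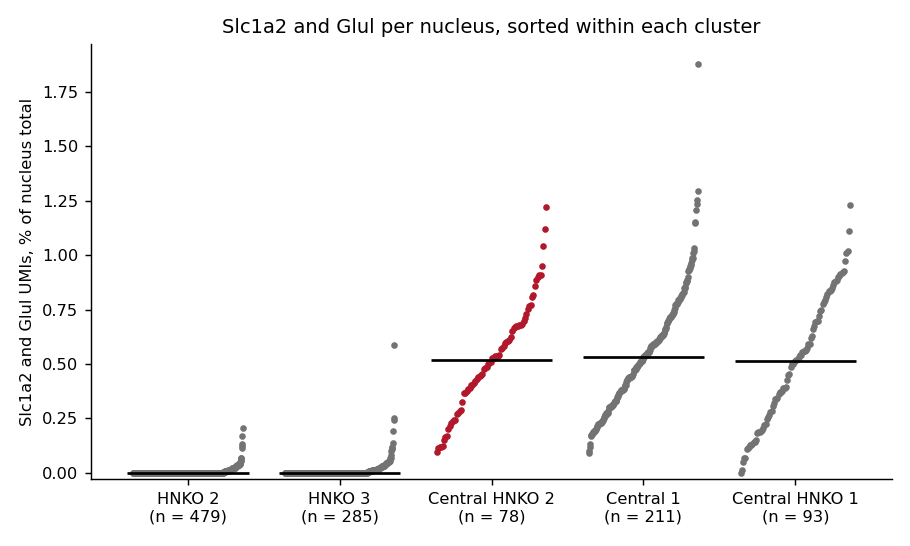
Slc1a2 and Glul UMIs as a percent of each nucleus's total UMIs, one point per nucleus sorted within its cluster, with the cluster median as a bar. Central HNKO 2 (n = 78), Central 1 and Central HNKO 1 have medians of 0.518, 0.533 and 0.513%, and the medians of HNKO 2 and HNKO 3 are 0.

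The comparison with Central 1 asked what was altered in central hepatocytes of HNKO mouse 3. Central 1 was taken from the 4 mice with 10 or more of its nuclei (211 nuclei of WT mice 1, 2 and 3 and HNKO mouse 2), and a gene was counted when it differed by at least 2-fold and its level lay outside the range of those 4 mice. Of 3301 genes 220 (6.66%) were higher and 184 (5.57%) lower. Without HNKO mouse 2, 308 were higher and 184 lower. This split depended on scaling. With TMM factors, 54 of 3278 (1.65%) were higher and 360 (11%) lower, so that the share of higher calls went from 54.5% to 13.0%. The median log2 ratio over all genes was 0.22 with UMI totals and -0.23 with TMM, and the differences below are therefore given as log2 ratios relative to the median of 0.22. For lists, the counts with TMM are given beside those with UMI totals.

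The 8 highest genes were Gria3, a glutamate receptor subunit (125 CPM against 7.19 CPM, 2.75 relative to the median), Ppp1r3c, a glycogen-targeting subunit of protein phosphatase 1 (178 against 18.0 CPM, 2.53), C9 (104 against 8.18 CPM, 2.43), Angptl8, a secreted regulator of lipoprotein lipase (127 against 16.2 CPM, 2.17), Chrna4, a nicotinic receptor subunit (113 against 14.4 CPM, 2.12), Tbx3 (185 against 28.8 CPM, 2.11), Bdh1, the β-hydroxybutyrate dehydrogenase (579.8 against 126 CPM, 1.89), and Rgn, regucalcin (249.8 against 52.2 CPM, 1.84). With TMM 7 of these 8 were called, and C9, with a log2 ratio of 2.32 in place of 2.65 before the median was subtracted, fell under the level filter. The log2 ratio of Gria3, 2.97 before subtraction, was 2.16 without the 10% of Central HNKO 2 nuclei with the most UMIs and 2.30 with nuclei weighted equally, below the 2.40 of Ppp1r3c in the latter case. The 4 Central 1 mice had 7.69, 18.8, 6.96 and 2.47 CPM of Gria3 and 7.69, 0, 24.3 and 27.2 CPM of Ppp1r3c, all below Central HNKO 2. Rnf43 (1340.2 against 575 CPM, 0.99) and Airn (1540.2 against 615 CPM, 1.09) were called higher with UMI totals and not with TMM. Of the Wnt list 2 of 10 measured genes were higher, Tbx3 and Rnf43, and with TMM Tbx3 alone, and none was lower under either scaling. Lgr5 (494 against 607 CPM, -0.51), Znrf3 (819 against 851 CPM, -0.27) and Notum (76.3 against 65.6 CPM, -0.03) were not called. Axin2 (69.4 against 16.2 CPM, 1.38) lay below the level filter. The median log2 ratio of the list was 0.20, beside 0.22 over all genes.

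The 8 lowest genes, all called with TMM as well, were Noct, a phosphatase of NADP(H) with a daily rhythm (25.9 against 466 CPM, -3.95 relative to the median), Trp53inp1, a p53-inducible protein (111 against 1562 CPM, -3.92), Sult3a1, a sulfotransferase (0 against 118 CPM), Dstn, the actin-depolymerising factor destrin (47.4 against 715 CPM, -3.88), Cyp2c29 (268 against 3325 CPM, -3.80), Insig2, which retains the sterol sensor in the endoplasmic reticulum (87.9 against 997 CPM, -3.58), Fbf1, a centriole protein (9.25 against 167 CPM, -3.42), and Pck1, the gluconeogenic PEP carboxykinase (339.9 against 3141 CPM, -3.39). Sult3a1 had no UMI in Central HNKO 2 and was at 77.0, 144, 198 and 76.6 CPM in the 4 mice, which makes it at least 17.0-fold lower when 3 counts are taken as the limit. Pck1 was at 2881, 3397, 3217 and 3153 CPM, and Trp53inp1 at 1689, 1579, 1743 and 1346 CPM, with little spread. Cyp2c29 was spread widely, at 7020.3, 3253, 974 and 2649 CPM, and was below all 4 in Central HNKO 2.

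Enzymes and transporters of the central list split. Of 24 measured, 7 were lower (Cyp2c29, Cyp2c37, Cyp27a1, Slc22a3, Por, Cyp2c54 and Ahr) and 1 higher (Rgn), and with TMM 10 were lower and 1 higher. Por, the reductase that feeds electrons to all microsomal P450s, was at 853 against 2645 CPM (-1.84), Cyp27a1, a sterol hydroxylase of bile acid synthesis, at 224 against 1192 CPM (-2.58), Cyp2c37 at 112 against 672 CPM (-2.71), and Ahr, the dioxin receptor, at 298 against 613 CPM (-1.24). Cyp2e1 (1966 against 2471 CPM, -0.55), Cyp1a2 (123 against 112 CPM, -0.11), Slco1b2 (4363 against 4493 CPM, -0.26), Glul (1198 against 1387 CPM, -0.43) and Slc1a2 (3272 against 4136 CPM, -0.56) were not called. Alas1, the first enzyme of heme synthesis, was at 118 against 1141 CPM (-3.39), and with it 4 of 12 measured xenobiotic receptor targets were lower and none higher (5 lower with TMM). The bile acid list had 4 of 20 lower (7 with TMM), among them Klb, the FGF15 co-receptor (55.5 against 417 CPM, -2.92), and Cyp2c70 (317 against 1531 CPM, -2.46). Por is also one of these xenobiotic targets and Cyp27a1 one of these bile acid genes, so that the lists overlap. Sgcz was at 205 CPM against 912, 645, 747 and 297 CPM (-1.74); without HNKO mouse 2 its log2 ratio moved from -1.52 to -1.88 before the median was subtracted.

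Among portal and general hepatocyte functions, 5 of 10 measured periportal genes were lower and none higher (7 lower with TMM), namely Pck1, G6pc, the glucose-6-phosphatase (102 against 986 CPM, -3.38), Cps1 (1799 against 5916 CPM, -1.93), Asl (78.6 against 217 CPM, -1.58) and Mfsd2a (57.8 against 186 CPM, -1.75). For Cps1 the median nucleus held 4 UMIs in both clusters, while the upper quartile was 7.75 UMIs in Central HNKO 2 and 25.5 in Central 1 and the highest nucleus held 123 and 1035 UMIs. Hepatocyte identity genes had 5 of 22 lower and none higher (9 lower with TMM), among them Alb at 1981 against 4712 CPM (-1.47), Tat at 386 against 1436 CPM (-2.09), Ahsg at 800.1 against 2103 CPM (-1.60) and Apoa1 at 278 against 609 CPM (-1.33). Acute phase genes had 3 of 11 lower (5 with TMM), Serpina3m, Crp and Cp. Of 19 cholesterol genes 9 were measured and 4 were higher, among them Hmgcs1 (125 against 40.5 CPM, 1.2), Fdft1 (94.8 against 22.5 CPM, 1.47) and Sc5d (268 against 117 CPM, 0.91), with 3 of 9 under TMM. Fatty acid synthesis had 2 of 13 lower, Thrsp (69.4 against 364 CPM, -2.46) and Elovl5 (178 against 507 CPM, -1.68), and fatty acid oxidation 3 of 14 lower, among them Acadm and Cyp4a14, the latter list with 5 under TMM. The NRF2 targets Gclm (123 against 48.6 CPM, 0.96) and Osgin1 (90.2 against 23.4 CPM, 1.37) were higher, 2 of 6 measured, with 1 of 6 under TMM. Mitochondrially encoded genes had 3 of 9 lower and 8 of 9 under TMM, with a sum of 1085 against 2075 CPM. As above, these levels come from isolated nuclei and do not measure expression in the whole cell. The 4 measured genes of the integrated stress response had 3 lower and 1 higher, with Atf3 at 13.9 against 129 CPM (-2.76) and Atf5 at 87.9 against 17.1 CPM (1.63), and with TMM 3 were measured and all were lower. Of 4 measured p53 targets 1 was higher and 2 were lower, and with TMM none was higher and 2 were lower. Mdm2 (118 against 44.1 CPM, 1.02) was higher with UMI totals and not with TMM, and Trp53inp1 was lower with both. Of the clock genes Per1 (9.25 against 102 CPM, -2.76) was lower and 2 genes, Nr1d1 among them, higher (1 gene higher with TMM). NAD synthesis had Ido2 (180.4 against 81.8 CPM, 0.83) higher with UMI totals and not with TMM, and Tdo2, the entry enzyme of the route from tryptophan (557 against 1259 CPM, -1.38), lower, of 11 measured, and with TMM none was higher and 2 were lower. None of 9 measured NAD-consuming genes was called in this comparison, and none of 18 cell cycle genes reached the level filter.

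**Figure D4:**
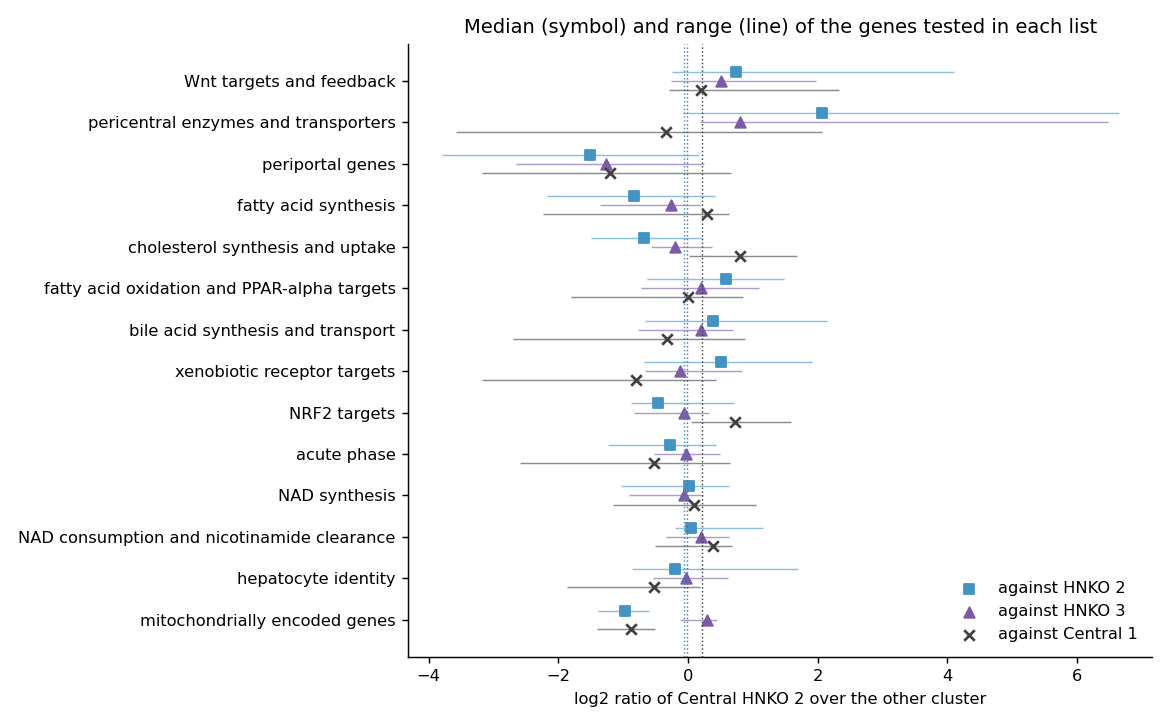
Median (symbol) and range (line) of the log2 ratio of Central HNKO 2 over HNKO 2, HNKO 3 and Central 1 for the measured genes of each list, with the median of all genes as dotted lines. Pericentral genes lie to the right against HNKO 2 (median 2.07) and to the left of the dotted line against Central 1 (median -0.33).

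In few genes did the log2 ratio over Central 1 differ by 1 or more from a reference ratio. The reference was the ratio of the other hepatocytes of HNKO mouse 3 over those of the same mice. These 769 nuclei were compared with the other hepatocytes of the same 4 mice, and of 3366 genes 155 (4.60%) were at least 2-fold higher and 165 (4.90%) at least 2-fold lower. Pck1, for example, was at 526 CPM in these nuclei against 3157 CPM, Trp53inp1 at 139 against 1359 CPM and Insig2 at 103 against 1038 CPM. Subtracting this ratio from that of the central nuclei left 20 of 3301 genes (0.606%) at 1 or above and 40 (1.21%) at -1 or below. The 40 included Sult3a1 (27.8 CPM in other hepatocytes of the 4 mice), Atf3 (-1.85 after subtraction), Slc22a3 (-1.84), Klb (-1.60), Sgcz (-1.50) and Cyp3a11 (-1.46). The 20 included Igfbp2 (1.57), Gria3 (1.24), Tbx3 (1.03) and Acly (1.03). Axin2 had 1.29 with its level under the filter. Genes in this paragraph other than those named before were picked after their values were seen. Rnf43 (0.21), Airn (-0.43), Pck1 (-0.61), Cyp2c29 (-0.80) and Alas1 (-0.08) did not pass this step, which is to say that the 2 ratios differed by less than 1. The subtraction was made with UMI totals and is not given with TMM.

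**Figure D5:**
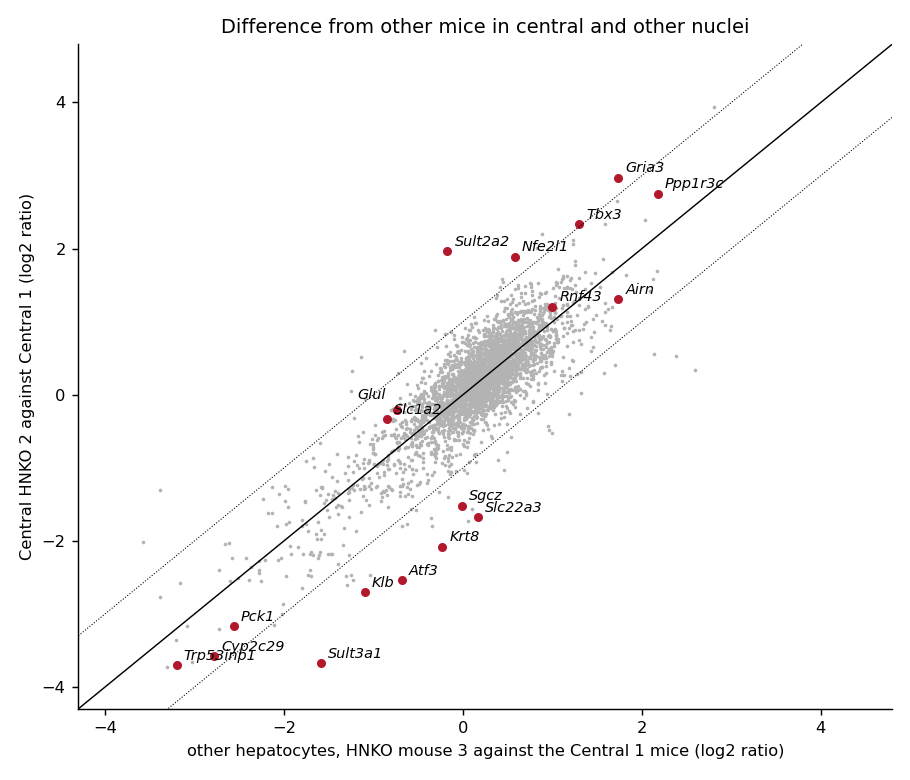
Log2 ratio of Central HNKO 2 over Central 1 (vertical axis) against the log2 ratio of the other hepatocytes of HNKO mouse 3 over those of the 4 Central 1 mice (horizontal axis), one point per gene, with the line of equal ratios and dotted lines 1 above and below. Pck1, Cyp2c29, Trp53inp1 and Rnf43 lie within 1 of the line of equal ratios, and Sult3a1, Slc22a3, Sgcz and Atf3 lie below the lower dotted line.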

How the data were processed

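Nuclei from livers of 6 mice, 3 per genotype, were sequenced with 10x 3′ chemistry as 2 RNA and 2 hashtag pools, which are the 4 samples of the series. The authors' fastq files were made with Cell Ranger version 5.0.1 and quantified with Alevin on GRCm38 with the GENCODE M25 gene model, and the authors deposited estimated counts of UMIs per gene and nucleus, spliced and unspliced RNA together. Alevin can divide a UMI among genes, and 10.1% of nonzero entries were not whole (tolerance 0.001). The deposited hashtag counts are raw counts per nucleus. The authors also deposited a score matrix from SCTransform, whole numbers corrected for depth, used here as an alternative only. They kept nuclei with a single hashtag, over 100 and under 1250 hashtag counts and under 5500 genes, and clustered them (35 principal components, resolution 1.2) into 21 named clusters, 13 of hepatocytes. No doublet caller was run here, and droplets with nuclei of 1 mouse together are not removed by hashtags.

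Nuclei were taken by the cluster name and the mouse by its hashtag. Estimated counts were summed over nuclei and expressed as CPM. Ratios are log2 with 10 CPM added to both sides, genes with a mean of 50 CPM or more in the 2 sums compared were measured, and a gene was counted at 2-fold (against Central 1 also outside the range of the 4 mice). No p-values were made from nuclei. Intervals are exact, 95%, and cover counting error only. Named genes were the 5 given markers, Nampt, the 8 highest and 8 lowest ratios per comparison with 30 or more UMIs in the higher sum, without predicted genes, and list members as examples; the condition that both pools show the same direction could not be applied. The members, lists and comparisons were chosen with earlier results of these data known. Medians of hashtag counts were compared over mice by an exact sign-flip test, which was not among the planned comparisons. Gene positions are those of GENCODE M21 on GRCm38. Python version 3.11.15, numpy version 2.4.6, pandas version 2.3.3, scipy version 1.17.1, matplotlib version 3.10.9, R version 4.3.3 and edgeR version 4.0.16 (TMM factors only) were used. The counting steps were tested on simulated data. Other priors, level filters, scalings, weightings and single mice were tried. Nuclei with at least 50% of their counts from their own hashtag, the subtraction of the other hepatocytes and the margin of 1 beyond the other 5 mice were added after seeing the data. Some named genes are not reported here.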

Additional observations from a re-analysis of the deposited data

Results flagged for a closer look

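Gna14, a G-protein α subunit and one of the genes with the highest ratio of Central HNKO 2 over HNKO 2, was at 453 CPM in the Central 1 nuclei of HNKO mouse 2, against 250.04, 251 and 275 CPM in WT mice 1, 2 and 3. This value lay far from the other 3 when the gap was set against the whole range (Dixon's 95% limit for 4 samples). Chance flags about 1 in 20 such groups, and the levels of all named genes were looked at in this way. Central HNKO 2, at 243 CPM, was beside the 3 WT mice. Without HNKO mouse 2 the log2 ratio of Central HNKO 2 over Central 1 was -0.10 in place of -0.43, and neither value was called.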

How the results depend on the processing

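No paired analysis was possible because the replicate numbers of the labels belong to sequencing pools that both hold every mouse, the barcodes do not show the pool, and the cluster comes from 1 mouse; the runs without a pool were therefore not made. Central and other nuclei were compared within each mouse, which does not use these numbers. The limits are that the cluster is 1 animal with 432424 UMIs, that genes with a mean under 50 CPM in the 2 sums were not measured, and that calls against Central 1 depend on scaling. No ratio changed sign while past 2-fold. With a mean of 20 CPM the counts against Central 1, HNKO 2 and HNKO 3 that moved by over 1.5 times were 517 higher, 213 lower, and 66 higher with 71 lower. With no filter they were 834 higher and 280 lower, 210 higher and 365 lower, and 104 higher and 158 lower. TMM gave 54 higher and 360 lower against Central 1 and 1 higher Wnt gene in place of 2. Against Central 1 of WT mouse 1, 2 or 3 alone, 378, 352 and 426 genes were higher. Leaving out each Central 1 mouse gave 211 to 308 higher (308 without HNKO mouse 2) and 184 to 207 lower. Without the 10% of Central HNKO 2 nuclei with the most UMIs, 52 genes were lower than in HNKO 3. The causes of these moves were not tested, except that a lower filter measures more genes. Nuclei with at least 50% of their hashtag counts from the own hashtag (53, 179 and 131 nuclei of Central HNKO 2, HNKO 2 and HNKO 3) gave 257 higher and 196 lower against Central 1, 122 and 132 against HNKO 2, and 49 and 39 against HNKO 3. Without thinning, detection was 100% for Slc1a2, 83.3% for Glul, 82.1% for Lgr5, 29.5% for Axin2, 46.2% for Tbx3, 74.4% for Gulo and 62.8% for Cyp2a5. Thinned sums gave r of 0.831 with Central 1, 0.788 with Central HNKO 1, 0.836 with HNKO 2 and 0.888 with HNKO 3. A prior of 1 CPM, nuclei weighted equally and the SCTransform values left all 6 counts of the 3 comparisons within 1.5 times.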
